A study of Homo sapiens with 8 samples.

Results

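The genes described are 38 members of the apoptosis machinery, chosen by symbol. These hold the BCL2 family with its anti-apoptotic, effector and BH3-only proteins, the caspases and the IAP proteins. The others are proteins of the apoptosome and of mitochondrial release, and FADD and CFLAR of the death receptor complex. The members were measured in MIA PaCa-2 cells, an established line from a human pancreatic carcinoma, on 8 Affymetrix Human PrimeView arrays. On 4 arrays the cells had received 30 µM of pachymic acid (PA), a triterpene of the fungus Poria cocos, for 24 h, and on the 4 control arrays the DMSO in which PA was dissolved. Each array carried the RNA of a whole culture of this line, so less RNA per cell and fewer cells with that RNA cannot be told apart. The sources state quadruplicate treatment and do not say whether the cultures were independent, and p-values then measure only the spread between these samples, which may be technical.

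Each array gave a log2 signal for 49395 probe sets, where a probe set is a group of short probes for the same transcript. Of the 38 members 37 had a probe set annotated with that symbol alone, and BIRC3 was not analysed here. These 37 genes had 155 probe sets, and a probe set was tested when the mean of control or of PA was at least 4. This held for 147 probe sets of 36 genes: both means reached 4 in 144, only the PA mean in 2 and only the control mean in 1. The probe sets just inside were BCL2 probe set 6 with means of 3.67 and 4.02, CASP4 probe set 7 with 3.90 and 4.12, and BAK1 probe set 5 with 4.01 and 3.97 (control and PA, numbered from the brightest probe set of a gene down). Just outside were BCL2L11 probe set 14 with means of 3.81 and 3.94 and CASP1 probe set 8 with 3.71 and 3.89. BCL2A1, an anti-apoptotic member known mainly from blood cells, was the member left out by this limit, with means of 3.15 and 3.30 at its brighter probe set and 2.99 and 3.07 at the other.

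Apoptosis through the mitochondria is set by the balance within the BCL2 family. BH3-only proteins sense stress and bind the anti-apoptotic members or activate the effectors BAX and BAK1, which open the outer mitochondrial membrane. Cytochrome c then assembles APAF1 and caspase-9 into the apoptosome, while death receptors recruit FADD and caspase-8, whose activation there CFLAR can restrain. Executioner caspases cut the cell's proteins, and IAP proteins restrain caspases or, in the case of BIRC2, act as ubiquitin ligases in signalling by TNF receptors. Much of this control acts on proteins, which arrays do not measure.

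The median signal of the arrays was 5.71 to 5.77, and the correlation of arrays was 0.9964 to 0.9977 in the same group and 0.9931 to 0.9964 across groups. The label was checked against marker genes. VIM, a filament protein of mesenchymal and of many cultured cells, had a signal of 14.38 in control. The other mesenchymal markers, CDH2 and FN1, were far lower, at 5.64 and 4.99. The keratins KRT8, KRT18 and KRT19 had 11.50, 13.39 and 12.70. The epithelial adhesion genes EPCAM and CDH1 were at 3.97 and 4.14, near the limit of 4. Of the markers of leukocytes, endothelium and fibroblasts, the pan-leukocyte gene PTPRC (3.14) and the fibroblast gene DCN (3.56) were below that limit, while CD3E, COL1A1, PECAM1, VWF, COL3A1, CD14 and CDH5 lay between 4.62 and 7.54. Of 18 markers 15 were tested, 2 rose (KRT8, by 0.18 on the log2 scale, and KRT18, by 0.19) and CD14, a gene of monocytes, fell from 7.35 to 6.83, while the part of these in the results below was not tested. A set of 8 control probe sets that match no transcript and hold 18 or more G or C was higher in PA arrays, at 7.03 ± 0.082 (SD, n = 4) against 6.77 ± 0.15 (n = 4, exact two-sided permutation test, p = 0.0571). A 2nd limma fit held this GC-rich background as a covariate, and its values are given beside the genes as those of the background-adjusted fit.

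The members went both ways with PA, and most did not pass the test. PA was compared with control by limma over all 38748 tested probe sets, and a probe set or gene was called at a Benjamini-Hochberg adjusted p under 0.05 at any fold. Read at its brightest probe set, the gene CASP1 rose by 0.58 on the log2 scale, PMAIP1 by 0.55, CFLAR by 0.42, BIRC2 by 0.33, FADD by 0.32, MCL1 by 0.26, BCL2L12 by 0.22 and BID by 0.20. CASP6 fell by 0.46, XIAP by 0.35, CASP8 by 0.22, CASP9 by 0.19, BAD by 0.18 and ENDOG by 0.18. The other 22 of the 36 genes did not pass, among them BCL2, BCL2L1, BAX, BAK1, APAF1 and BIRC5.

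By count, 8 genes were raised where 8.23% of all 15226 genes were, and 6 were lowered where 10.5% of all genes were. The median log2 change was 0.06 over the members and 0.02 over all genes. No member reached 1.5-fold at its brightest probe set. The 4 PA arrays were all higher than every control array in 10 of the 36 genes, against 11.9% of all genes, and all lower in 8, against 14.5%. Read as the mean of tested probe sets in place of the brightest, 12 members were raised and 4 lowered (9.58% and 10.1% of all genes). This reading was also adjusted over genes in place of probe sets. BCL2L1, BAK1, CYCS and DIABLO then rose and BIRC6 fell, while CASP8, CASP9 and XIAP did not pass. DIABLO has 1 probe set, so its change of 0.15 stayed the same. With adjustment over genes, DIABLO and CYCS also passed at the brightest probe set (adjusted p = 0.0454 and 0.0483 from limma).

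**Figure D1:**
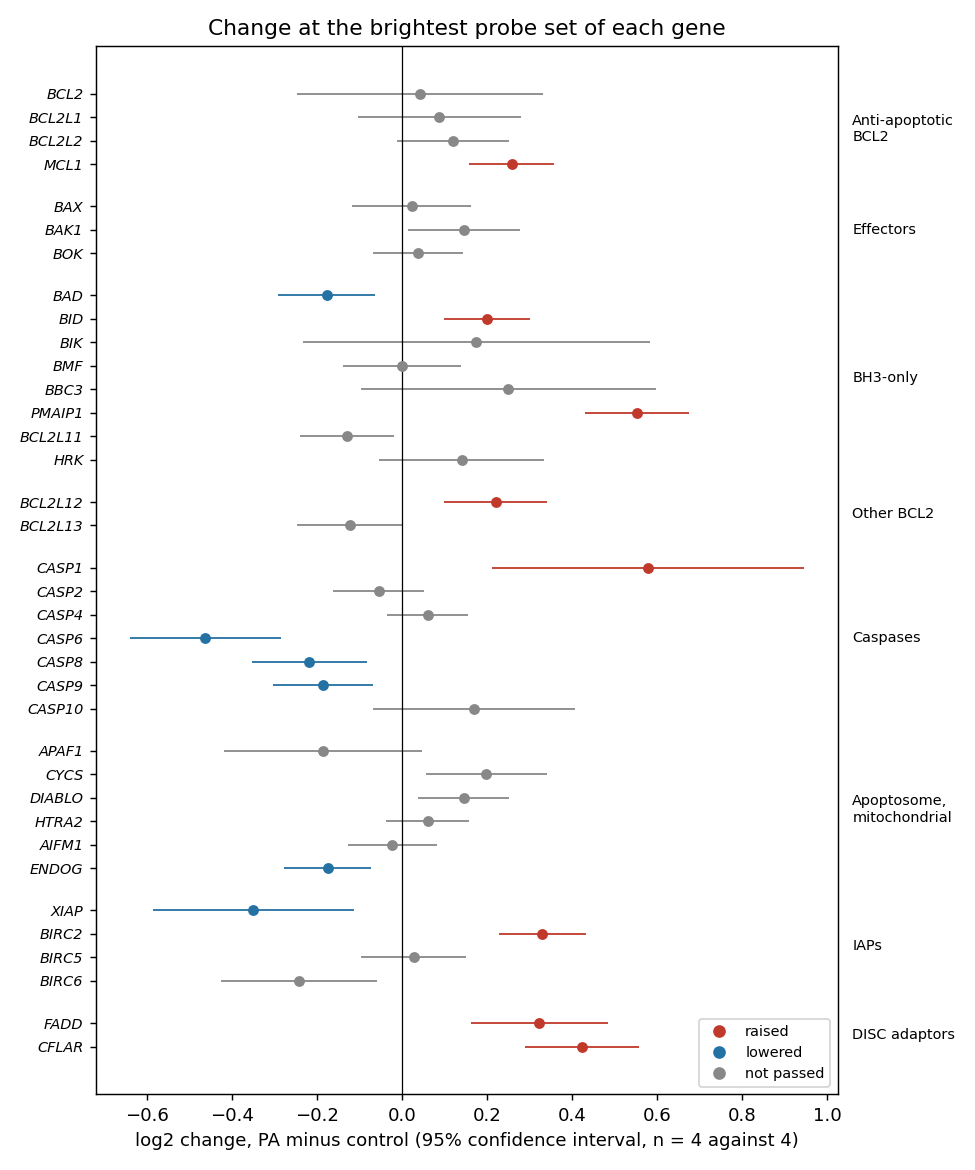
Log2 change with PA (x axis, PA minus control, with the 95% confidence interval from limma, n = 4 against 4) at the brightest probe set of each of the 36 tested genes, in their role groups. Red points were raised, blue points lowered and grey points not passed at an adjusted p under 0.05. FADD and CFLAR lie to the right of 0, while caspases and IAP proteins lie on both sides.

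The direction was mixed within the BH3-only genes, the caspases and the IAP genes. The anti-apoptotic genes ran from 0.04 to 0.26 and the effectors from 0.02 to 0.15, though only MCL1 of these passed. FADD and CFLAR rose by 0.32 and 0.42. The median change was 0.10 over 4 anti-apoptotic genes, 0.04 over 3 effectors, 0.16 over 8 BH3-only genes, -0.06 over 7 caspases and -0.11 over 4 IAP genes, and the ranges within these groups overlapped. The BH3-only genes ran from -0.18 to 0.55, the caspases from -0.46 to 0.58 and the IAP genes from -0.35 to 0.33. On single arrays, the anti-apoptotic genes had a median of -0.06, -0.04, 0.02 and 0.07 above their control means in the controls and of 0.10, 0.20, 0.12 and 0.14 in PA, so the groups did not overlap for that median. The caspases had -0.03, 0.04, -0.03 and -0.02 in the controls and -0.06, 0.02, -0.10 and -0.07 in PA, which overlapped. The medians of the BH3-only genes, the effectors and the IAP genes also overlapped between control and PA. With so few genes in a group these medians are a description, and no test was made of a difference between groups.

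**Figure D2:**
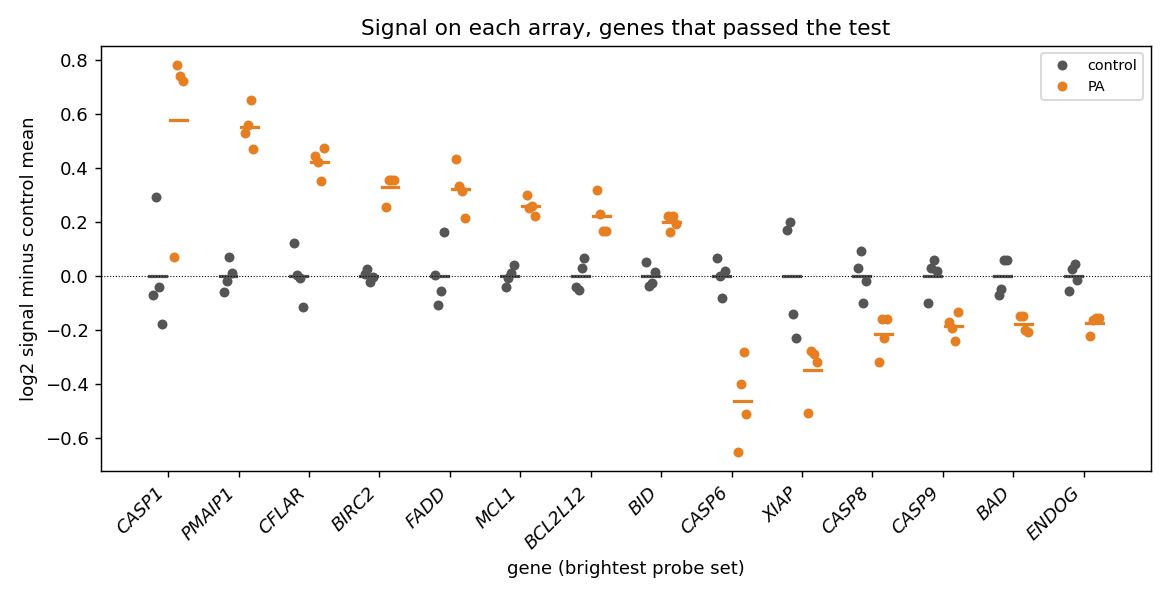
Log2 signal on each array minus the control mean of that gene (y axis) for the 14 genes that passed, at the brightest probe set. Grey points are the 4 control arrays, orange points the 4 PA arrays and bars their means. PA and control do not overlap in any of these genes but CASP1, where PA replicate 1 lies among the controls.

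Among all 147 tested probe sets of members, PA raised 35 and lowered 9, and 103 did not pass, where 8% of all probe sets were raised and 9.07% lowered. Probe sets of a gene share transcripts and are no replicates, but they show whether other probe sets of the gene changed as well. Where they lie on the transcript was not examined. BIRC2 was raised at 5 of 5 probe sets, PMAIP1 at 2 of 2, CFLAR at 7 of 8, BID at 3 of 4, MCL1 at 4 of 6, FADD at 2 of 3 and CASP1 at 4 of 7. XIAP was lowered at 3 of 5 and CASP8 at 1 of 8, while CASP6, ENDOG and BCL2L12 each had a single tested probe set. Of these probe sets 4 changed 1.5-fold or more, 3 of CASP1 and 1 of MCL1, all raised, where 0.475% of all probe sets were raised and 0.658% lowered by as much.

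**Figure D3:**
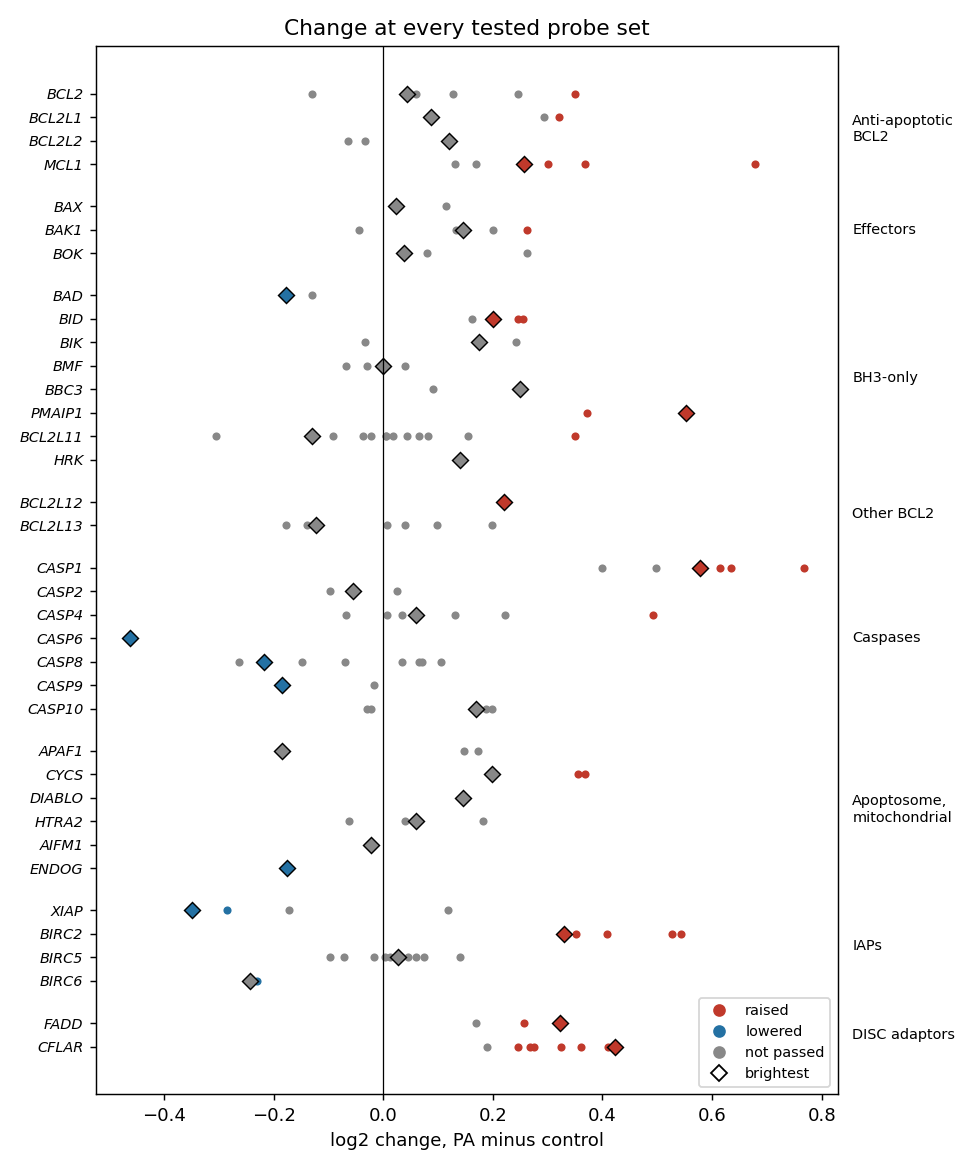
Log2 change with PA (x axis, PA minus control) at every tested probe set of the 36 genes. Diamonds are the brightest probe set of a gene and circles the others, in red where raised, blue where lowered and grey where not passed. All probe sets of BIRC2, CFLAR and MCL1 lie to the right of 0, while those of CASP8 and BCL2L11 lie on both sides.

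Promoter sequences are shown for the 3 genes with at least 2 tested probe sets of which at least 80% were raised, PMAIP1, BIRC2 and CFLAR. They come from RefSeq on GRCh38.p14 and run from 250 bases before to 50 bases after the most upstream start, and capitals mark the matches to 4 motifs searched on both strands. PMAIP1 lies on chr18:59899746-59900045, BIRC2 on chr11:102346964-102347263 and CFLAR on chr2:201118466-201118765, each on the plus strand.
PMAIP1: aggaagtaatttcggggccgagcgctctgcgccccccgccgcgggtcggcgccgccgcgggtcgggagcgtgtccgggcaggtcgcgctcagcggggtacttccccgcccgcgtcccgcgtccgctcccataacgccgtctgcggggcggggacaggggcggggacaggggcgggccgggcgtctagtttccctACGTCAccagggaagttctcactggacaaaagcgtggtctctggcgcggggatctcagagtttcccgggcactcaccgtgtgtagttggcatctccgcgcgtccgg
BIRC2: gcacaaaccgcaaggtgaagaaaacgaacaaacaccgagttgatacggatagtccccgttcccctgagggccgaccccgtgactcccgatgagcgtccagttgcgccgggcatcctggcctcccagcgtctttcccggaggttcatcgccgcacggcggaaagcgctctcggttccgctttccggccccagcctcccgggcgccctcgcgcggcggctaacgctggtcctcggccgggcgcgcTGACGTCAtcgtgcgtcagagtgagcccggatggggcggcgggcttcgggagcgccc
CFLAR: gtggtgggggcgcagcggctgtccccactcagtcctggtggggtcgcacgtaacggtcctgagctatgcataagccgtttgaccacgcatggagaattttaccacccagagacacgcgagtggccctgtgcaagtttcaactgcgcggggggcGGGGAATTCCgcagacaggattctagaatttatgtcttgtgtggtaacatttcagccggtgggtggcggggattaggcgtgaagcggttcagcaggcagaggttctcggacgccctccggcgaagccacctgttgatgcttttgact
The core of the ATF/CREB site, TGACGT, was found on the minus strand of PMAIP1, 56 bases before the start, and on both strands of BIRC2, where matches 7 and 5 bases before the start overlap. The NF-kB consensus was found in CFLAR 97 bases before the start. The TGACGT core stands in 7.98% of 35116 promoters of the same length and the NF-kB consensus in 5.91%. The 57 promoters in the table that belong to 32 of the members held them in 12.3% and 7.02%. TGACGT stood in promoters of 5 members, BAD, BIRC2, CYCS, PMAIP1 and XIAP, of which BAD and XIAP were lowered. The NF-kB consensus stood in those of BIRC3, BIRC6, BMF and CFLAR. Of these, BIRC6 and BMF did not pass at the brightest probe set, and BIRC3 was not analysed. The consensus of the p53 decamer stood in 6.63% of all and 7.02% of members' promoters, and the composite C/EBP-ATF motif TGATGNAAT in 0.991% of all and 0 of the members'. These are matches of letters, with no measurement of binding.

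Of the anti-apoptotic genes, which bind and hold back BH3-only proteins and effectors, only MCL1 passed at its brightest probe set, though BCL2 and BCL2L1 each had a dimmer probe set that did. MCL1 encodes a short-lived protein that binds NOXA and BIM. Its brightest probe set had signals of 12.12, 12.15, 12.17 and 12.20 in control and 12.46, 12.41, 12.42 and 12.38 in PA. All PA arrays were above all controls, and the means of 12.16 ± 0.034 (SD, n = 4) and 12.42 ± 0.033 (n = 4) differ by 0.26 (1.20-fold, standard error 0.044, adjusted p = 0.00561 from limma). MCL1 rose most at probe set 5, which read 8.20, 8.08, 8.03 and 8.15 in control and 8.90, 8.79, 8.78 and 8.70 in PA. This is a 1.60-fold difference without overlap (log2 change 0.68, standard error 0.060, adjusted p = 4.16e-04). In the background-adjusted fit the brightest probe set of MCL1 changed by 0.22 and missed the threshold (adjusted p = 0.119), while probe sets 3 and 5 passed. Probe sets 3 and 6 rose by 0.37 and 0.30, and probe sets 2 and 4, at 0.13 and 0.17, did not pass. The call at probe set 3 was lost without replicate 4 of control or replicate 2, 3 or 4 of PA, with adjusted p of 0.0569 to 0.0661, while the calls at the other raised probe sets held whichever array was left out.

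BCL2, the founding member, had signals of 5.45, 5.60, 5.77 and 5.83 in control and 5.39, 5.91, 5.61 and 5.91 in PA at its brightest probe set. The groups overlapped, and the change of 0.04 had a 95% confidence interval of -0.25 to 0.33 (standard error 0.13, adjusted p = 0.850). BCL2 probe set 6, which passed the limit on low signals only through PA, went from 3.67 ± 0.21 to 4.02 ± 0.12 (adjusted p = 0.0478). The call at this probe set held only without replicate 3 of control or replicate 2 of PA, and without any of the other 6 arrays the adjusted p was 0.0675 to 0.0973.
BCL2L1, the gene of BCL-XL, read 7.79, 7.88, 7.48 and 7.66 in control and 7.84, 7.86, 7.75 and 7.71 in PA. These overlapped as well (log2 change 0.09, interval -0.10 to 0.28, standard error 0.085, adjusted p = 0.515). Its probe set 3 rose by 0.32, from 5.15 ± 0.18 to 5.47 ± 0.091 (adjusted p = 0.0394), and held its call only without control replicate 3 (adjusted p up to 0.0896 without another array). With the mean of the 3 BCL2L1 probe sets in place of the brightest, the change of 0.23 passed (adjusted p = 0.0132). BCL2L2, the gene of BCL-w, went from 9.23 ± 0.082 to 9.35 ± 0.068 and did not pass (adjusted p = 0.190), as did none of its 3 probe sets.

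None of the 3 effectors, which form the pore in the outer mitochondrial membrane, passed at its brightest probe set. BAX read 10.26, 10.23, 10.38 and 10.36 in control and 10.24, 10.46, 10.31 and 10.31 in PA. The groups lay on top of each other, with a change of 0.02 and an interval of -0.12 to 0.16 (standard error 0.062, adjusted p = 0.833), so a rise of BAX RNA by more than 0.16 lay outside the interval at this probe set. The 2nd BAX probe set changed by 0.12 and did not pass either.
BAK1 read 7.84, 7.81, 7.67 and 7.82 in control and 7.83, 7.98, 7.99 and 7.92 in PA. PA replicate 1 lay within the control range (change 0.15, interval 0.01 to 0.28, standard error 0.059, adjusted p = 0.121). BAK1 probe set 4 rose by 0.26, from 6.35 ± 0.17 to 6.61 ± 0.024 (adjusted p = 0.0478), with its call kept only without control replicate 1 or 3 (adjusted p 0.0617 to 0.102 without any of the other 6 arrays). With the mean of its 5 probe sets BAK1 changed by 0.14 and passed (adjusted p = 0.0358). BOK, a less studied relative of both, changed by 0.04 (adjusted p = 0.620) and by 0.08 and 0.26 at its other probe sets.

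Read at the brightest probe sets, the largest rise in the BCL2 family was that of a BH3-only gene, PMAIP1, the gene of NOXA, which binds MCL1. Its signals were 9.27, 9.31, 9.40 and 9.34 in control and 9.86, 9.89, 9.98 and 9.80 in PA. Every PA array was above every control, by at least 0.40, and the means of 9.33 ± 0.055 and 9.88 ± 0.075 differ 1.47-fold (limma adjusted p = 6.13e-04, a change of 0.55 on the log2 scale with a standard error of 0.055). The 2nd probe set of PMAIP1 read 8.53, 8.53, 8.30 and 8.54 in control and 8.85, 8.84, 8.91 and 8.79 in PA, again without overlap (log2 change 0.37, standard error 0.065, adjusted p = 0.00585). Both calls held whichever array was left out and in the background-adjusted fit, where the changes were 0.53 and 0.51.

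BID, which caspase-8 cuts and which links death receptors to mitochondria, read 10.37, 10.28, 10.29 and 10.33 in control and 10.54, 10.48, 10.54 and 10.51 in PA. The groups did not overlap, and the difference between 10.32 ± 0.041 and 10.52 ± 0.029 was 1.15-fold (log2 change 0.20, standard error 0.045, adjusted p = 0.0167). Probe sets 2 and 3 rose by 0.25 and 0.26, and probe set 4, at 0.16, did not pass. Probe set 2 lost its call without replicate 1 or 2 of control or replicate 1 or 2 of PA, with adjusted p of 0.0516 to 0.0613. With the background adjusted for, the change of BID was 0.20 and did not pass (adjusted p = 0.162).
BAD, which binds BCL-XL and is held inactive by phosphorylation, went the other way. It read 9.04, 9.06, 9.17 and 9.17 in control and 8.96, 8.96, 8.91 and 8.90 in PA. All PA arrays were below all controls, yet the difference was small (9.11 ± 0.070 against 8.93 ± 0.032, 1.13-fold lower, standard error 0.050 on the log2 scale, adjusted p = 0.0405). The call held only without control replicate 1, and without any of the other 7 arrays the adjusted p was 0.0584 to 0.0993. The background-adjusted change was larger, at -0.27, and did not pass (adjusted p = 0.0854). The 2nd BAD probe set changed by -0.13 and did not pass.

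BBC3, the gene of PUMA and a target of p53, varied widely among the controls, at 8.52, 7.91, 8.16 and 8.68, and read 8.43, 8.53, 8.57 and 8.74 in PA. The ranges overlapped, and a change of 0.25 with an interval of -0.10 to 0.60 did not pass (standard error 0.15, adjusted p = 0.295). BCL2L11, the gene of BIM, read 7.27, 7.29, 7.37 and 7.29 in control and 7.24, 7.15, 7.11 and 7.20 in PA at its brightest probe set. All PA arrays were below all controls, and the change of -0.13 did not pass (interval -0.24 to -0.02, standard error 0.049, adjusted p = 0.102). Its 13 tested probe sets gave changes from -0.31 to 0.35. Of these, probe set 5 was raised (5.63 ± 0.13 against 5.98 ± 0.11, adjusted p = 0.0189), with adjusted p of 0.0521 and 0.0526 without control replicate 1 and 2. BIK, BMF and HRK, other BH3-only genes, changed by 0.18, 0.00 and 0.14 with adjusted p of 0.543, 1 and 0.293. BIK was the most variable of them in PA, at 6.70, 6.76, 6.17 and 5.91, which reached above and below the controls at 6.09, 6.06, 6.35 and 6.34.
Of the other BCL2-related genes, BCL2L12 read 11.20, 11.19, 11.27 and 11.31 in control and 11.56, 11.47, 11.41 and 11.41 in PA. The groups did not overlap (log2 change 0.22, standard error 0.054, adjusted p = 0.0239), but the call was lost without replicate 1 or 2 of control or replicate 1 or 2 of PA, with adjusted p of 0.0524 to 0.0643. Adjusted for the background, BCL2L12 changed by 0.12 and did not pass (adjusted p = 0.423). BCL2L13, a mitochondrial relative, changed by -0.12 (adjusted p = 0.157), and none of its 7 probe sets passed, with changes from -0.18 to 0.20.

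Of the 7 tested caspases, CASP1, the inflammatory caspase that matures interleukin-1 beta, rose, and the initiators CASP8 and CASP9 and the executioner CASP6 fell. At its brightest probe set CASP1 read 7.21, 7.57, 7.24 and 7.10 in control and 7.35, 8.06, 8.02 and 8.0 in PA. PA replicate 1 lay within the control range and the other PA arrays above it. The means of 7.28 ± 0.20 and 7.86 ± 0.34 differ 1.49-fold (limma adjusted p = 0.0397, a change of 0.58 on the log2 scale with a standard error of 0.16). Without PA replicate 1 the change was 0.75 (adjusted p = 0.00484), and it also passed without control replicate 2, while without any of the other 6 arrays the adjusted p was 0.0733 to 0.0978. The background-adjusted change of CASP1 was 0.94 and did not pass (adjusted p = 0.0752).

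The same array stood low at several CASP1 probe sets. Probe set 4 read 6.41, 6.55, 6.36 and 6.52 in control and 6.73, 7.21, 7.17 and 7.19 in PA, with all PA arrays above the controls (log2 change 0.62, adjusted p = 0.00590). Probe set 7 read 4.67, 4.87, 4.78 and 4.87 in control and 5.45, 5.69, 5.64 and 5.48 in PA, which is 1.70-fold higher without overlap (log2 change 0.77, standard error 0.073, adjusted p = 5.07e-04). Here PA replicate 1 was not apart from the other PA arrays, and the calls at probe sets 4 and 7 held whichever array was left out. Probe set 3 rose by 0.64 (adjusted p = 0.0396), with the call lost without replicate 1, 2 or 4 of control or replicate 2, 3 or 4 of PA (adjusted p 0.0799 to 0.0972). Probe sets 2, 5 and 6 changed by 0.40, 0.58 and 0.50 and did not pass (adjusted p of 0.0928, 0.0506 and 0.0835). A further probe set, shared with CARD16, was left out.

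**Figure D4:**
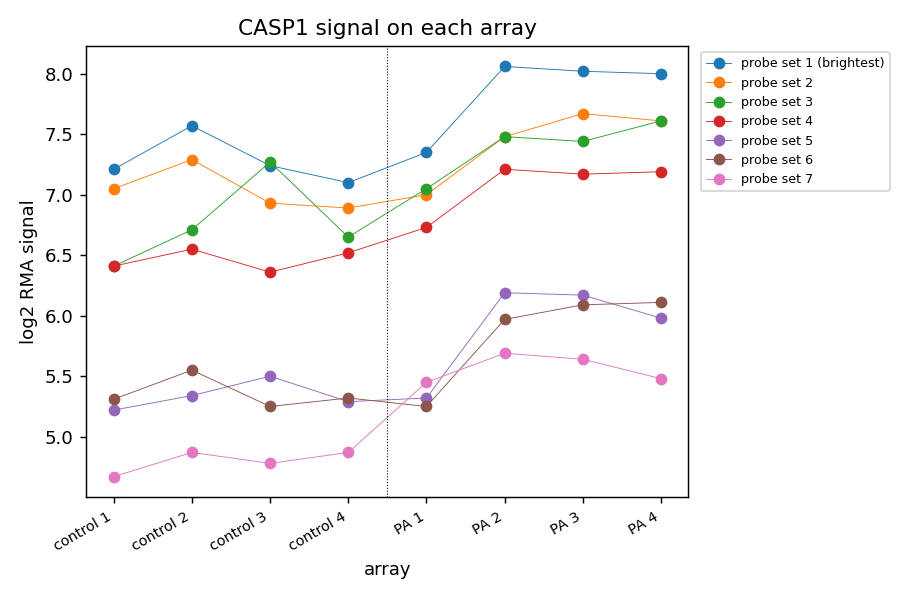
Log2 RMA signal (y axis) of CASP1 on each of the 4 control and 4 PA arrays (x axis) at its 7 tested probe sets, numbered from the brightest. Thin lines only join the values of a probe set, and replicate numbers carry no order. PA replicate 1 lies below the other PA arrays at each probe set but is above every control at probe sets 4 and 7.

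CASP6, an executioner that cuts lamins, had a single tested probe set of its own. It read 8.65, 8.58, 8.50 and 8.60 in control and 7.93, 8.18, 8.30 and 8.07 in PA. All PA arrays were below all controls, and 8.58 ± 0.062 against 8.12 ± 0.16 is 1.38-fold lower (log2 change -0.46, standard error 0.079, adjusted p = 0.00543). The call held whichever array was left out, but not in the background-adjusted fit, where CASP6 changed by -0.31 (adjusted p = 0.180). A pair of probe sets shared with PLA2G12A was left out.
CASP8, the initiator at death receptors, read 9.94, 10.00, 9.81 and 9.89 in control and 9.59, 9.75, 9.68 and 9.75 in PA. The groups did not overlap at this probe set (1.16-fold lower, log2 change -0.22, standard error 0.060, adjusted p = 0.0358). The other 7 CASP8 probe sets changed by -0.26 to 0.11 and did not pass, and with the mean of all 8 the change was -0.05 (adjusted p = 0.567). The call at the brightest also held only without control replicate 3, with adjusted p of 0.0555 to 0.0909 without any of the other 7 arrays. With the background adjusted for, CASP8 changed by -0.09 and did not pass (adjusted p = 0.579).

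CASP9, the initiator of the apoptosome, read 8.02, 8.15, 8.18 and 8.14 in control and 7.95, 7.93, 7.88 and 7.99 in PA. PA lay below control without overlap but by little (1.14-fold lower, log2 change -0.19, standard error 0.052, adjusted p = 0.0396). Its 2nd probe set changed by -0.02, and the mean of both by -0.10 (adjusted p = 0.144). The call held only without control replicate 1, and the adjusted p was 0.0598 to 0.0954 without any of the other 7 arrays. Adjusted for the background, CASP9 changed by -0.25 and did not pass (adjusted p = 0.140).
CASP2, CASP4 and CASP10 changed by -0.06, 0.06 and 0.17 and did not pass (adjusted p of 0.461, 0.357 and 0.299). CASP4, an inflammatory caspase that senses lipopolysaccharide, rose at probe set 6 of 7, from 4.80 ± 0.27 to 5.29 ± 0.16 (adjusted p = 0.0343), a call lost without replicate 2 of control or replicate 2, 3 or 4 of PA (adjusted p 0.0669 to 0.0791). At its other probe sets CASP4 changed by -0.07 to 0.22.

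Of the genes that act between mitochondria and caspases, CYCS, the gene of cytochrome c, was raised at its dimmer probe sets and ENDOG, a mitochondrial nuclease, fell. CYCS read 12.76, 12.75, 12.55 and 12.76 in control and 12.88, 12.96, 12.95 and 12.82 in PA at its brightest probe set. All PA arrays were above all controls, and the change of 0.20 did not pass (standard error 0.063, interval 0.06 to 0.34, adjusted p = 0.0612). Probe set 2 of CYCS read 11.50, 11.46, 11.44 and 11.49 in control and 11.88, 11.83, 11.82 and 11.78 in PA. This difference of 0.36 lay far beyond the spread (standard error 0.045, adjusted p = 0.00156) and held whichever array was left out. Probe set 3 rose by 0.37 (adjusted p = 0.0473), a call that held only without PA replicate 1 or 4 (adjusted p 0.0723 to 0.120 without any of the other 6 arrays). With the mean of its 3 probe sets CYCS changed by 0.31 and passed (adjusted p = 0.00597).
APAF1, the scaffold of the apoptosome, read 5.33, 5.34, 5.44 and 5.67 in control and 5.20, 5.09, 5.24 and 5.51 in PA. The ranges overlapped (change -0.19, interval -0.42 to 0.05, standard error 0.10, adjusted p = 0.249), and the other 2 tested probe sets changed by 0.15 and 0.17.
ENDOG read 9.40, 9.48, 9.50 and 9.44 in control and 9.23, 9.29, 9.30 and 9.30 in PA, without overlap (1.13-fold lower, standard error 0.046 on the log2 scale, adjusted p = 0.0302). Its call held only without control replicate 1, with adjusted p of 0.0546 to 0.0735 without any of the other 7 arrays. The background-adjusted change of ENDOG was -0.17 (adjusted p = 0.232). DIABLO and HTRA2, whose proteins antagonise IAPs after release, changed by 0.15 and 0.06 and AIFM1, a flavoprotein that moves to the nucleus, by -0.02 (adjusted p of 0.0658, 0.376 and 0.777).

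The IAP genes split between BIRC2, which rose at each of its probe sets, and XIAP, which fell at its 3 brightest. BIRC2 encodes cIAP1, a ubiquitin ligase of TNF receptor complexes. Its brightest probe set read 11.69, 11.71, 11.66 and 11.68 in control and 11.94, 12.04, 12.04 and 12.04 in PA. The groups were well apart, at 11.69 ± 0.021 and 12.02 ± 0.050 (log2 change 0.33, 1.26-fold, standard error 0.045, adjusted p = 0.00227). BIRC2 probe set 4 read 9.68, 9.63, 9.65 and 9.66 in control and 10.19, 10.15, 10.20 and 10.19 in PA, a 1.44-fold difference (log2 change 0.53, adjusted p = 2.40e-04). The other 3 rose by 0.35, 0.41 and 0.54, PA lay above control at all 5 probe sets, and each call held whichever array was left out and in the background-adjusted fit.

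XIAP, which binds and blocks the executioner caspases and caspase-9, read 10.18, 10.21, 9.87 and 9.78 in control and 9.50, 9.73, 9.72 and 9.69 in PA at its brightest probe set. PA lay below control, while control replicates 3 and 4 were close to the PA arrays (1.27-fold lower, log2 change -0.35, standard error 0.10, adjusted p = 0.0491). The call held only without control replicate 3 or 4, and without any of the other 6 arrays the adjusted p was 0.0750 to 0.119. Probe set 2 of XIAP read 9.63, 9.51, 9.37 and 9.41 in control and 9.13, 9.16, 9.11 and 9.12 in PA. Probe set 3 read 9.08, 9.10, 8.99 and 8.91 in control and 8.72, 8.78, 8.74 and 8.70 in PA. At both, PA lay below control without overlap, by 0.35 and 0.28 on the log2 scale (adjusted p = 0.00635 and 0.00910), and these calls held whichever array was left out. Probe sets 4 and 5 changed by 0.12 and -0.17 and did not pass, and the mean of all 5 by -0.21 (adjusted p = 0.0532). The control arrays with the lowest signal at the 3 brightest probe sets were replicates 3 and 4, the same in which the GC-rich background was highest among controls (6.95 and 6.83, against 6.70 and 6.59), and its part in these values was not tested beyond the background-adjusted fit. There XIAP changed by -0.05 at the brightest probe set (adjusted p = 0.868), and by -0.24 and -0.19 at the next 2 (adjusted p = 0.183 and 0.226).

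BIRC5, the gene of survivin, a protein of dividing cells, was flat at 11 tested probe sets. It read 10.49, 10.53, 10.63 and 10.67 in control and 10.65, 10.63, 10.59 and 10.56 in PA at the brightest, where the groups overlapped (change 0.03, interval -0.10 to 0.15, standard error 0.055, adjusted p = 0.766). Over its probe sets the changes ran from -0.10 to 0.14, and no adjusted p was under 0.291. BIRC6, a giant ubiquitin-conjugating IAP, changed by -0.24 at its brightest probe set (adjusted p = 0.0707) and by -0.23 at the other (adjusted p = 0.0296), where the call was lost without replicate 1 or 2 of control or replicate 3 or 4 of PA (adjusted p 0.0682 to 0.0739). All PA arrays lay below all controls at both.

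The adaptor FADD and CFLAR, both of the death receptor complex, rose. CFLAR, the gene of c-FLIP, a caspase-8 homologue without protease activity, read 10.50, 10.38, 10.37 and 10.26 in control and 10.82, 10.80, 10.73 and 10.85 in PA. All PA arrays were above all controls (10.38 ± 0.098 against 10.80 ± 0.051, 1.34-fold, log2 change 0.42, standard error 0.060, adjusted p = 0.00248). Its probe set 2 read 10.33, 10.26, 10.33 and 10.26 in control and 10.67, 10.67, 10.74 and 10.74 in PA (log2 change 0.41, adjusted p = 9.89e-04). The next 4 and probe set 8 rose by 0.25 to 0.36, and probe set 7, at 0.19, did not pass (adjusted p = 0.0657). The calls held whichever array was left out but for probe set 3, which lost its call without replicate 1, 2 or 3 of control or replicate 2, 3 or 4 of PA (adjusted p 0.0549 to 0.0699). The brightest probe set of CFLAR changed by 0.44 in the background-adjusted fit and missed the threshold (adjusted p = 0.0610), while probe set 2 passed.
FADD, which bridges death receptors and caspase-8, read 9.30, 9.19, 9.24 and 9.46 in control and 9.73, 9.63, 9.61 and 9.51 in PA. The groups did not overlap (1.25-fold, log2 change 0.32, standard error 0.071, adjusted p = 0.0160). With the background adjusted for, FADD changed by 0.24 and did not pass (adjusted p = 0.291). Probe set 2 rose by 0.26 (adjusted p = 0.0491), a call that held only without control replicate 4 (adjusted p 0.0651 to 0.122 without another array), and probe set 3, at 0.17, did not pass.

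Neighbouring genes of the pathway were counted from a separate list of 38, of which 35 had a probe set of their own and 34 were tested, while the others were not analysed here. Of these 34, PA raised 2 and lowered 4, and 28 did not pass, where 8.23% of all genes were raised and 10.5% lowered, and the median change was -0.03. Among the death receptors and their ligands, TNFRSF10A, a receptor of TRAIL, rose by 0.35 (8.19 ± 0.066 to 8.54 ± 0.025, adjusted p = 0.00232). TNFRSF10B, the other signalling TRAIL receptor, rose by 0.15 (adjusted p = 0.0443), and this call was lost whichever array was left out (adjusted p 0.0711 to 0.115). TNFSF10, the gene of TRAIL itself, was 1.72-fold lower, from 6.75 ± 0.048 to 5.97 ± 0.24 (log2 change -0.78, adjusted p = 0.00203). TRADD, an adaptor of TNF receptors, fell by 0.29 (adjusted p = 0.0117). BNIP3L, a mitophagy receptor with a BH3-like region, fell by 0.60 (adjusted p = 5.20e-04), and BAG4, a cofactor of Hsp70, by 0.20 (adjusted p = 0.0218, and 0.0564 to 0.0572 without replicate 2 of control or replicate 2 or 4 of PA). In the background-adjusted limma fit BNIP3L changed by -0.565 and passed (adjusted p = 0.0317), and the other genes named here did not. There TNFSF10 changed by -0.74 (adjusted p = 0.0757), TNFRSF10A by 0.27 (0.0805) and TRADD by -0.36 (0.0792). TNFRSF10B changed by 0.14 (0.280) and BAG4 by -0.21 (0.171). None of 7 caspase substrates and nucleases of the list passed in the fit without the covariate.

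The calls of the members were fewer in the background-adjusted fit. There 12 probe sets were raised and 0 were lowered (by limma, at backgrounds of 0.952% and 0.612% of all probe sets): 5 of BIRC2, 2 of PMAIP1, 2 of MCL1 and 1 each of CFLAR, CYCS and CASP1. At the brightest probe set PMAIP1 and BIRC2 were raised and no gene was lowered (0.933% and 0.762% of all genes). At an unadjusted p under 0.05 the same fit held 38 raised and 10 lowered probe sets of members, against 9.65% and 8.67% of all probe sets, and 10 raised and 6 lowered members, against 8.8% and 9.87% of all genes. Standard errors of members were larger by a median of 1.47 times, since the covariate differs between the groups. Of the genes called without it that then missed the threshold, BID and ENDOG kept their change to within 0.01. CASP1, BAD, CASP9 and CFLAR had larger changes, and XIAP, CASP8 and BCL2L12 had changes reduced by the largest share.

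**Figure D5:**
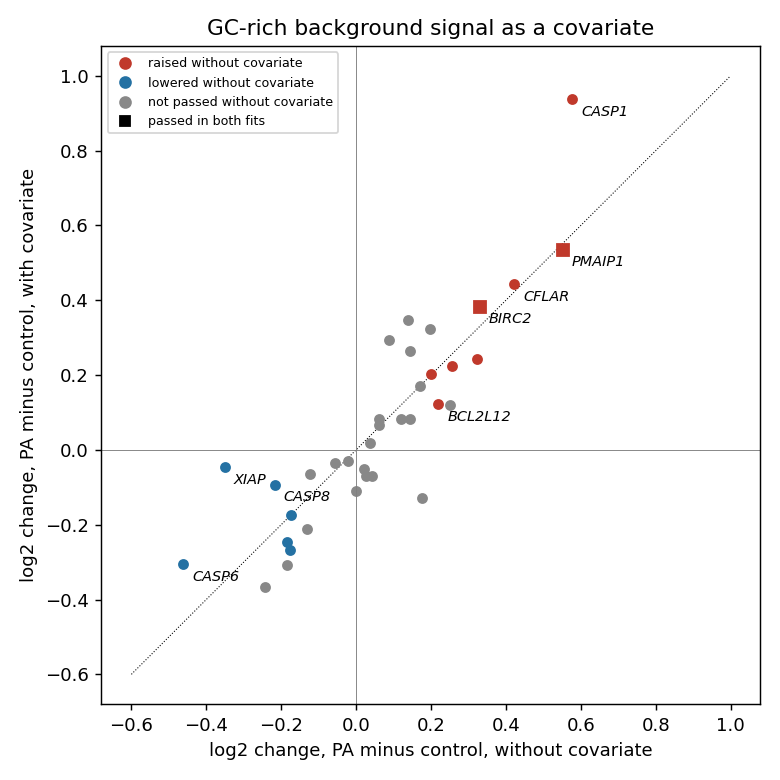
Log2 change with PA at the brightest probe set of each of the 36 genes without (x axis) and with (y axis) the GC-rich background signal as a covariate. Colours give the call without the covariate, squares passed in both fits, and the dotted line marks equal values. PMAIP1 and BIRC2 passed in both, and XIAP lies far off the line, at -0.35 and -0.05.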

How the data were processed

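RNA of MIA PaCa-2 cells, 4 control and 4 PA samples, was labelled and hybridised to PrimeView arrays, and the condition of each was taken from its label. The authors made the deposited log2 signals in Partek by RMA, which corrects the background, quantile-normalizes the arrays to the same distribution and summarises probes by median polish, and can compress bright signals. The submitters' processing notes name GCOS, Partek and RMA and give no version. Whether the normalization held arrays of another cell line is not given in the sources used here.

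Control probe sets and those below a mean of 4 in both groups were left out, which kept 38748. They were fitted with limma 3.58.1 in R 4.3.3 and adjusted by the Benjamini-Hochberg method over all. A gene was read at its brightest probe set with a single symbol (44994 probe sets have one, 1832 several and 2569 none). Some probe sets have names ending in x_at, which Affymetrix gives where some probes also match other transcripts. These include the brightest probe sets of BAD, CASP6 and CASP8, and those of BCL2L1, BIK, CASP4 and HTRA2, which did not pass. Among dimmer probe sets that were called, they include probe set 2 of CYCS, XIAP and BID and probe set 6 of MCL1. They also include probe sets 3 and 4 of CASP1 and probe sets 2, 3, 6 and 8 of CFLAR. Names ending in s_at belong to the brightest probe sets of MCL1 and BIRC2 and to probe set 3 of XIAP, which were called. The brightest probe sets of CYCS, CASP2, BOK and BCL2L13, which did not pass, have such names too. What else these s_at probe sets match was not examined. The members and lists were chosen with earlier results of these data known. Every member is accounted for, and those called at the brightest probe set and a fixed set of central genes were given in full, with up to 6 of the pathway list. Alternatives were other filters, normalizations, variance models and gene values, a 1.5-fold limit, the GC-rich background, a replicate block and each array left out. Samples with the same replicate number were not treated as pairs, since the labels state no pairing. Deviations of same-numbered arrays correlated at -0.153 to 0.0527, which cannot show whether the samples were handled together. The number of arrays limits the precision. Python 3.11.15 with matplotlib 3.10.9 drew the figures.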

Additional observations from a re-analysis of the deposited data

Results flagged for a closer look

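The brightest probe set of each gene and all 7 tested probe sets of CASP1 gave 84 groups of 4 arrays. In each group the lowest or highest array was compared with the nearest of the others. By Dixon's test 7 values stood apart, 5 on PA replicate 1 and 1 each on control replicates 3 and 4, and 3 of the 7 come from probe sets of CASP1. Chance gives about 1 in 20 groups if these are independent. Those of CASP1 are not, and its flags at probe sets 4 and 6 arise only because all its probe sets were entered. PA replicate 1 stood low at CASP1, with 7.35 where the other PA arrays had 8.0 to 8.06, 6.73 against 7.17 to 7.21 at probe set 4, and 5.25 against 5.97 to 6.11 at probe set 6. The same array was low at BIRC2, with 11.94 against 12.04, and at ENDOG, with 9.23 against 9.29 to 9.30. Control replicate 3 was low at CYCS, with 12.55 against 12.75 to 12.76. Control replicate 4 was high at AIFM1, with 11.07 against 11.00 to 11.01.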

How the results depend on the processing

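Against 35 raised and 9 lowered probe sets and 8 raised and 6 lowered genes, the GC-rich background as a covariate gave 12 and 0 probe sets and 2 and 0 genes. A limit of 1.5-fold gave 4 and 0 probe sets and 0 genes each way, and the replicate block 5 lowered probe sets, 5 raised genes and 1 lowered gene. Whether same-numbered arrays were handled together is not stated in the labels. Lowered genes were 3 without a filter on low signals and 3 with quantile normalization over the 8 arrays. Without an array in turn, raised probe sets were 24 to 33, lowered probe sets 3 to 6, raised genes 6 to 7 and lowered genes 1 to 4. The pathway list, with 2 raised and 4 lowered genes, gave 1 raised without the filter, 1 with the block, 4 raised and 7 lowered with the plain ANOVA and q-values, 9 lowered with an intensity trend, 0 and 1 with the covariate, 0 and 2 at 1.5-fold, and 1 to 2 raised and 3 to 6 lowered without an array. The medians moved to 0.005968 for BH3-only and -0.05791 for IAP genes with the covariate, and to 0.1267 for effectors and 0.1746 for anti-apoptotic genes with the mean of probe sets. Without an array they ran from 0.1129 to 0.1725 for BH3-only genes and from -0.1354 to -0.06542 for IAP genes. The causes were not tested. No called gene changed direction under these alternatives, and centring shifted all values by 0.0025.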
